A study of Mus musculus with 8 samples.

Results

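SR proteins and hnRNPs are the main families of RNA-binding proteins that set which exons are kept in a messenger RNA, and the genes that encode them were examined here for peaks of the protein APOBEC2 on chromatin. The 35 genes were taken from a list of symbols, not from measured values, out of 21887 protein-coding genes of the mouse. They are 15 genes of the SR class (11 Srsf genes, 2 Tra2 genes and 2 Srrm genes) and 20 hnRNP genes. A gene was counted where a peak touched it or the 1 kb on either side of it.

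The data are chromatin immunoprecipitations followed by sequencing in C2C12, a line of mouse muscle precursors that stops dividing and fuses into myotubes once serum is reduced. There were 3 immunoprecipitated (IP) libraries labelled 34 h and 3 labelled 14 h after the change to medium with 2% horse serum, all made with a rabbit polyclonal antibody against APOBEC2, a member of the AID/APOBEC family of cytidine deaminases that is expressed mainly in muscle. Each time had 1 input library, and each IP library came with its own list of peaks called against the input of its time. The protocol text gives 24 h in place of 14 h for the earlier harvest, so that time is uncertain. The names of the deposited lists carry the term GFPsh for every library, which the labels do not explain. The labels do not say that replicates were separate cultures, so the p-values below speak of variation among these libraries alone, and that variation could be technical. No control antibody and no cells lacking APOBEC2 enter the comparisons, and the lists hold no expression values with which to check the state of the cells.

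SR proteins pair RNA-recognition motifs with a stretch rich in arginine and serine, bind exonic enhancer sequences and recruit the U1 and U2 particles to nearby splice sites. Tra2 proteins are related activators, named for the transformer-2 gene of Drosophila, and Srrm proteins are large nuclear matrix proteins of the same arginine-serine type. hnRNPs coat nascent transcripts, and several of them, such as Hnrnpa1, oppose SR proteins at splice sites. Both families are abundant in dividing cells, and changes in the balance between them are among the known routes by which myoblasts switch exons as they differentiate.

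Most of the peaks at these genes lay just upstream of the transcription start, so the promoters of 7 of them are shown first. These 7 are the 4 genes with a peak in all 6 libraries (Tra2b, Srsf10, Srsf1 and Hnrnpab), the paralog Tra2a, and Hnrnpa3 and Hnrnpa2b1, which had the highest summit counts. Each line gives the 250 bases before the start, 5′ to 3′ in the direction of the gene, from the promoter table of RefSeq on GRCm38.p6. Capitals mark the stretch spanned by the summits of the libraries, a summit being the base of a peak with the most fragments. The windows are chr16:22266006-22266255 on the minus strand for Tra2b, chr6:49264053-49264302 on the minus strand for Tra2a, chr4:135855821-135856070 on the plus strand for Srsf10, chr11:88047123-88047372 on the plus strand for Srsf1, chr11:51606882-51607131 on the minus strand for Hnrnpab, chr2:75659009-75659258 on the plus strand for Hnrnpa3 and chr6:51469895-51470144 on the minus strand for Hnrnpa2b1.
Tra2b: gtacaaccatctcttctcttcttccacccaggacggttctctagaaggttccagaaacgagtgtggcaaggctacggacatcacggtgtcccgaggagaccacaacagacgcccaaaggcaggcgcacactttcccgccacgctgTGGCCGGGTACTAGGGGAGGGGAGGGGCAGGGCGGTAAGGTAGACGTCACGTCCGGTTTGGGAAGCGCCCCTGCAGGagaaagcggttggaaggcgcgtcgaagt
Tra2a: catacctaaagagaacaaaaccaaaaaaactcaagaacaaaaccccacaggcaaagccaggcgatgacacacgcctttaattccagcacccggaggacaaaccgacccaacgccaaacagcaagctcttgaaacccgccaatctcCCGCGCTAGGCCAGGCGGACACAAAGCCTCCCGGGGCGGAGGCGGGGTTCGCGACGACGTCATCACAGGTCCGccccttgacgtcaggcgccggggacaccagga
Srsf10: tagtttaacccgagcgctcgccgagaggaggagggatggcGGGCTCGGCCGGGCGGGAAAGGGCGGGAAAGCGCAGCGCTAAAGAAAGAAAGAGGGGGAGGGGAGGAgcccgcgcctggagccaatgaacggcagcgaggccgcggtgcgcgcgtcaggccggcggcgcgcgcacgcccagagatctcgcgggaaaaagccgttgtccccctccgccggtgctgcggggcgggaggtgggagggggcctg
Srsf1: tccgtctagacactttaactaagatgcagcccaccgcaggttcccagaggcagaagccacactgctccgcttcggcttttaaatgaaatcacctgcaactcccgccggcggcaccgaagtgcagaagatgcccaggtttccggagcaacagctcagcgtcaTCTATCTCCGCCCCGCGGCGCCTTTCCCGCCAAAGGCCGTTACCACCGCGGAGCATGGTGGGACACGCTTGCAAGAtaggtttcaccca
Hnrnpab: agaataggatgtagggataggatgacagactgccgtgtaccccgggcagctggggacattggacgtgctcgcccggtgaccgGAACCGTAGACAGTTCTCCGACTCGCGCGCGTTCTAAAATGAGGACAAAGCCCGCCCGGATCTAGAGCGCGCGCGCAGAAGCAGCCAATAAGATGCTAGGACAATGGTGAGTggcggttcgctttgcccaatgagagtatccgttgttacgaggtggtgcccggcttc
Hnrnpa3: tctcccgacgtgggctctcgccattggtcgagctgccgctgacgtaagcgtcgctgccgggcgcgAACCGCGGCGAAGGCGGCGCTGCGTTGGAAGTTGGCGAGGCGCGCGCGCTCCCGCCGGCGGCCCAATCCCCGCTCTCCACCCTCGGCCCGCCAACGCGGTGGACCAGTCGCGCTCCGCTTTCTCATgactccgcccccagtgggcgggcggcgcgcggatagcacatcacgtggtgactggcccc
Hnrnpa2b1: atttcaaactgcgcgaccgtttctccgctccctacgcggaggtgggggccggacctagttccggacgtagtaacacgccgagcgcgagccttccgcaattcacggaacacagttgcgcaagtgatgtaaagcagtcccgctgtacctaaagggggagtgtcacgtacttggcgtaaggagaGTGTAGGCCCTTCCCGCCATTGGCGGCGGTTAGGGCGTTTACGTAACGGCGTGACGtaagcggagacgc

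The stretch of summits ran over bases 105 to 29 upstream of the start at Tra2b and over bases 105 to 33 at Tra2a. At Srsf10 the 6 summits fell farther upstream, in bases 210 to 144, and at Srsf1 5 of 6 summits fell in bases 89 to 14. The summits covered bases 168 to 57 at Hnrnpab, bases 185 to 60 at Hnrnpa3 and bases 69 to 14 at Hnrnpa2b1. The capitals cover only summits inside the printed window, which leaves out 1 of 6 summits at Srsf1, 1 of 6 at Hnrnpa3 and 1 of 5 at Hnrnpa2b1.

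The lists of the 3 libraries at 34 h held 2209, 5025 and 1068 peaks, and those at 14 h held 768, 1327 and 797 peaks. Replicate 2 at 34 h had by far the longest list. Relative depth, recovered from the caller's values, was 0.998, 1.07 and 1.17 at 34 h against 1, 0.985 and 1.09 at 14 h, taking replicate 1 at 14 h as 1. The median summit stood on 19 to 21 fragments at 34 h and on 22 to 24 at 14 h. These counts limit the precision of every fold below, and a gene without a peak was not shown to be unbound.

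At 34 h, 11 of the 35 genes (31.4%, exact 95% binomial interval 16.9 to 49.3%) had a region, meaning overlapping peaks of at least 2 of the 3 libraries. The same rule called 8.79% of all protein-coding genes. The genes were Srsf1, Srsf2, Srsf10, Srsf11, Tra2a and Tra2b of the SR class and Hnrnpa1, Hnrnpa2b1, Hnrnpa3, Hnrnpab and Hnrnpul1 of the hnRNPs. At 14 h, 8 of the 35 genes (22.9%, interval 10.4 to 40.1%) had one, against 4.27% of all genes. These 8 were among the 11 of the later time, and Srsf2, Hnrnpa1 and Hnrnpa2b1 were the 3 with a region at 34 h only. At either time 9.57% of all genes were called. The intervals cover counting error only, and since the genes are related and were listed with earlier results of these data known, no test was made over the list.

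The members were not long genes. Their median length was 13723 bp, against 17169 bp for all protein-coding genes. More of them had a close neighbour, with another protein-coding gene within 2 kb for 21 of 35 (60%) against 37.2% of all genes. Among the 14 members without such a neighbour, Srsf1, Tra2a, Tra2b and Hnrnpa3 had a region at each time, against 6.27% of isolated genes at 34 h and 2.81% at 14 h.

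**Figure D1:**
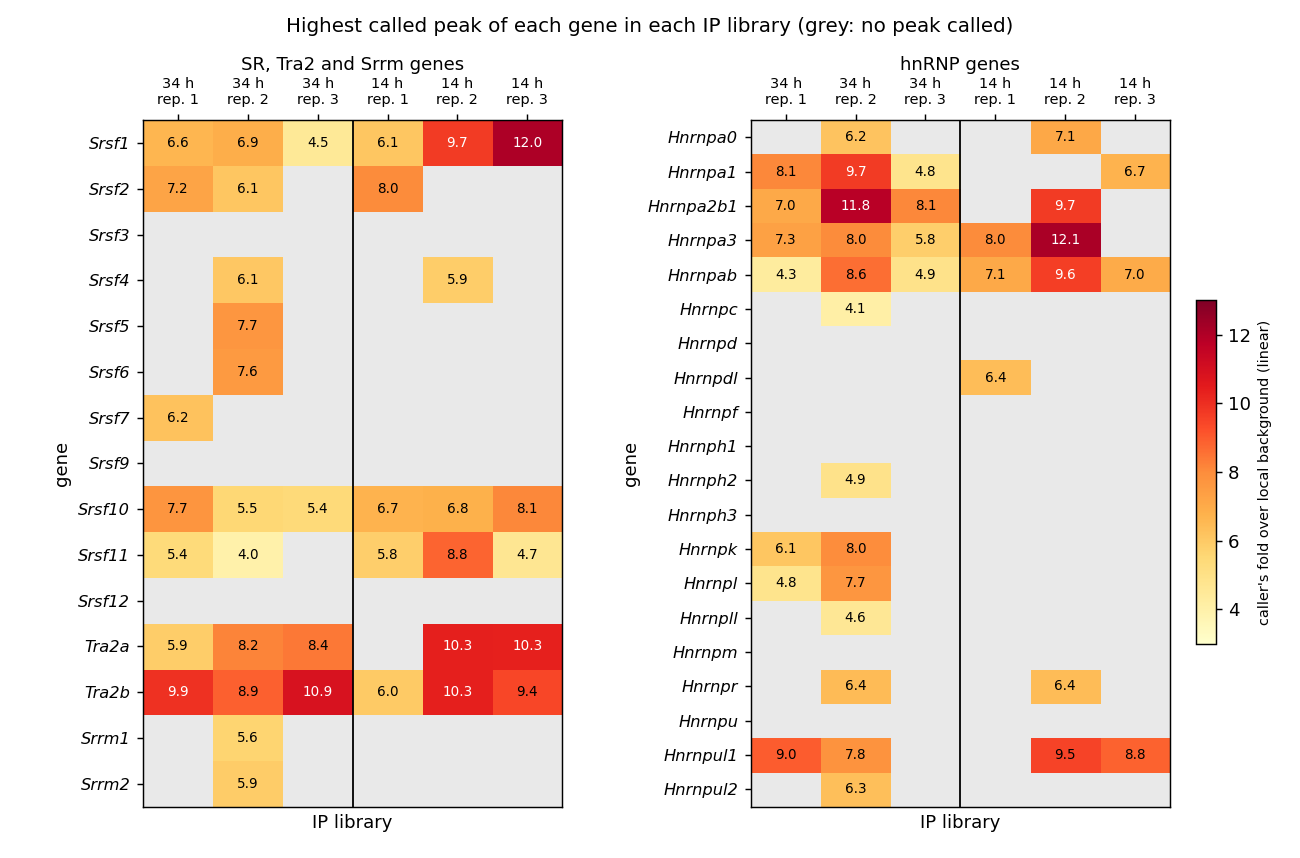
Caller's fold over local background (linear scale, colour) of the highest called peak for each of the 35 genes (down) in each of the 6 IP libraries (across, 34 h left of 14 h), with SR, Tra2 and Srrm genes in the left panel and hnRNP genes in the right. Grey cells had no called peak: Srsf1, Srsf10, Tra2b and Hnrnpab have colour in all 6 libraries, and 9 genes are grey throughout.

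SR genes had a region more often than hnRNP genes, but on numbers too small to separate the classes. At 34 h 6 of 15 SR genes (40%, interval 16.3 to 67.7%) and 5 of 20 hnRNP genes (25%, interval 8.66 to 49.1%) were called. At 14 h the counts were 5 of 15 SR genes (33.3%, interval 11.8 to 61.6%) and 3 of 20 hnRNP genes (15%, interval 3.21 to 37.9%). The intervals of the classes overlap at each time. Taking only the 768 most significant peaks of each list left 1 SR gene and 3 hnRNP genes at 34 h, which turns the order round. The classes also differed in close neighbours. Another protein-coding gene lay within 2 kb of 6 of 15 SR genes (40%) and of 15 of 20 hnRNP genes (75%). Among those called at 34 h it did so for 3 of 6 SR genes and 4 of 5 hnRNP genes. Whether neighbours bear on the contrast was not tested.

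Library by library, peaks touched 7, 11 and 4 SR genes at 34 h and 5, 6 and 5 at 14 h. The hnRNP genes had 7, 13 and 4 at 34 h and 3, 6 and 3 at 14 h. The SR share was the higher in each of the 6 libraries, which share the genes and so are not independent of one another. Over libraries the SR share averaged 48.9% ± 23.4 at 34 h and 35.6% ± 3.85 at 14 h (SD over 3 libraries). The hnRNP share averaged 40.0% ± 22.9 at 34 h and 20.0% ± 8.66 at 14 h. All protein-coding genes averaged 10.7% ± 6.82 at 34 h and 4.73% ± 1.54 at 14 h. The single libraries touched 9.24%, 18.1% and 4.7% of all genes at 34 h and 3.72%, 6.5% and 3.97% at 14 h, so the shares of both classes stood above that of all genes in every library.

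**Figure D2:**
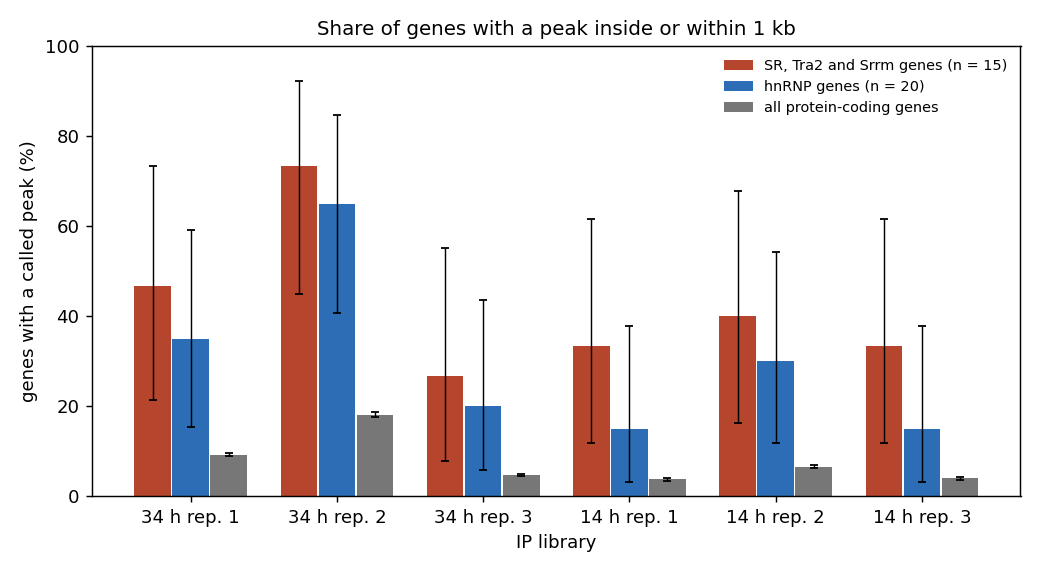
Percentage of genes with a called peak inside the gene or within 1 kb (vertical axis) in each IP library (horizontal axis, 34 h left of 14 h), for SR, Tra2 and Srrm genes (n = 15), hnRNP genes (n = 20) and all protein-coding genes (n = 21887), with exact 95% binomial intervals as black lines. Replicate 2 at 34 h is highest for all 3 sets, with 73.3% of SR genes, 65% of hnRNP genes and 18.1% of all genes.

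Srsf1 encodes the founding SR protein, which promotes use of 5′ splice sites through U1. Its peaks had folds of 6.62, 6.90 and 4.49 over local background in replicates 1 to 3 at 34 h and 6.10, 9.69 and 12.0 at 14 h. The folds are the authors' own values for each peak, as their peak caller wrote them. Over whole lists the median fold was 5.92, 5.72 and 6.04 at 34 h and 8.11, 8.00 and 8.48 at 14 h. A higher fold at 14 h thus does not by itself show a stronger peak at a gene. The ranges at Srsf1 overlap between times, and the lowest and the highest value fell in replicates numbered 3. The peak of replicate 3 at 34 h lay apart from the others, with its summit 240 bp downstream of the start, and was joined to the region by overlap alone.

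Srsf10 encodes an SR-related protein that acts as a general splicing repressor when it is dephosphorylated, for example on heat shock. Its folds were 7.70, 5.53 and 5.40 at 34 h and 6.71, 6.76 and 8.10 at 14 h, from summits of 14 to 20 fragments. No library stood apart from the others. The gene lies at chr4:135855752-135869908 in the gene table, and all 6 summits lay upstream of the start used here, which is inside those limits.

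Srsf2 encodes SC35, an SR protein of nuclear speckles, and had a region at 34 h only. Its folds were 7.19 and 6.09 in replicates 1 and 2 at 34 h, with no peak in replicate 3, and 8.02 in replicate 1 at 14 h, with none in replicates 2 and 3. The 14 h peak had its summit 113 bp upstream of the start, next to those at 34 h, which were 110 and 194 bp upstream. These peaks also fell in the window of Mfsd11 on the other strand, with summits 474 to 558 bp upstream of its start. The single library at 14 h had the highest of the 3 folds, but folds of all peaks ran higher at 14 h. The summits stood on 18 and 17 fragments in replicates 1 and 2 at 34 h and on 17 in replicate 1 at 14 h. The call at 34 h only was set by the number of libraries with a peak, and a change in height was not tested.

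Srsf11, whose protein binds the U2 auxiliary factor, had folds of 5.35 and 3.97 in replicates 1 and 2 at 34 h and 5.81, 8.81 and 4.65 at 14 h. Replicate 3 at 34 h had no peak there. The fold of 3.97 ranked 4739 of 5025 in its list, so this member was held at 34 h partly by a peak near the bottom of the longest list. Its region also touches Lrrc40, which starts on the other strand: summits lay 93 to 162 bp upstream of the start of Srsf11 and 17 to 86 bp inside that of Lrrc40.

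Both Tra2 genes had a region at each time, and the peak at Tra2b was the strongest SR-class peak at 34 h. Tra2b had folds of 9.94, 8.88 and 10.9 at 34 h and 6.01, 10.3 and 9.41 at 14 h. Within their own lists the 34 h peaks exceeded 90.1%, 88.2% and 91.1% of all peaks, and the 14 h peaks 23.0%, 66.1% and 58.6%. Percentiles of lists of different length do not show a change between times. Tra2a had folds of 5.87, 8.18 and 8.40 at 34 h and 10.3 and 10.3 in replicates 2 and 3 at 14 h, with no peak in replicate 1. The proteins of both genes bind GAA-rich exonic enhancers. Srrm1 and Srrm2, which encode scaffold proteins of the speckle, each had a single peak, in replicate 2 at 34 h, with folds of 5.62 and 5.90.

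Among the hnRNPs, 4 of the 5 regions at 34 h were at genes named A or B. Of the 5 genes Hnrnpa0, Hnrnpa1, Hnrnpa2b1, Hnrnpa3 and Hnrnpab, 4 were called at 34 h and 2 at 14 h, and each of the 5 had a peak in at least 2 libraries. Of the 4 F and H genes none had a region, and Hnrnph2 alone had a peak, in 1 library. These groupings are by gene name and hold too few genes for more than a count.

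Hnrnpab, which encodes an RNA-binding protein also known as CBF-A, was the only hnRNP gene with a peak in all 6 libraries. Its folds were 4.29, 8.59 and 4.90 at 34 h and 7.05, 9.63 and 6.96 at 14 h. Replicate 2 was the highest at each time. Among all genes, 2.26% had a peak in each of the 6 libraries, against 4 of the 35 members.

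Hnrnpa3 had folds of 7.30, 8.00 and 5.83 at 34 h and 8.02 and 12.1 in replicates 1 and 2 at 14 h, with no peak in replicate 3. Its summit in replicate 2 at 34 h stood on 47 fragments, the highest count of any member in any library. Hnrnpul1, an hnRNP U-like protein with a part in the response to DNA damage, had folds of 8.97 and 7.79 in replicates 1 and 2 at 34 h and 9.5 and 8.84 in replicates 2 and 3 at 14 h. Its 4 summits lay between 179 and 204 bp upstream of the start. Both genes thus had overlapping peaks in 2 or more libraries of each time.

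Hnrnpa1 and Hnrnpa2b1 had regions at 34 h and a peak in 1 library at 14 h. Hnrnpa1, the textbook antagonist of Srsf1 in splice-site choice, had folds of 8.11, 9.70 and 4.80 at 34 h and 6.70 in replicate 3 at 14 h. Hnrnpa2b1, whose protein also carries RNA in transport granules, had folds of 7.02, 11.8 and 8.10 at 34 h and 9.71 in replicate 2 at 14 h. In both genes the fold of the 14 h peak lay inside the range of the 34 h peaks.

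Each of these neighbours a gene for an HP1 protein, a reader of methylated histone H3, on the opposite strand. The region called at Hnrnpa1 was nearer to Cbx5: the summits of its highest peaks lay 909, 903 and 1001 bp upstream of the start of Hnrnpa1 in the 34 h libraries, and 364, 358 and 456 bp inside Cbx5. A lower peak of replicate 1 in the same region, with a fold of 5.16, lay 489 bp upstream of Hnrnpa1 and 56 bp upstream of Cbx5. The peak at 14 h lay 983 bp upstream of Hnrnpa1 and 438 bp inside Cbx5. A separate peak of replicate 2 at 34 h stood 64 bp upstream of Hnrnpa1, with a fold of 4.96. At Hnrnpa2b1 the summits were 14 to 69 bp upstream of its own start and 653 to 708 bp upstream of the start of Cbx3, so there the member was the nearer gene. Peaks cannot be assigned to a gene of such a pair from position alone, and which gene they belong to was not tested.

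The remaining members with peaks had no region. Srsf4, Hnrnpa0 and Hnrnpr each had a peak in replicate 2 of both times, with folds of 5.87 to 7.07, and so missed the call at each time by 1 library. Hnrnpk, a poly-C binding protein, had peaks of fold 6.12 and 7.99 in replicates 1 and 2 at 34 h, at chr13:58402178-58402377 and chr13:58402507-58402830, which do not overlap. Both summits lay nearer the start of the neighbour Rmi1. The first was 50 bp inside Rmi1 and 181 bp upstream of the start of Hnrnpk. The second was 2 bp upstream of the start of Rmi1 and 478 bp upstream of that of Hnrnpk. Hnrnpl, which binds CA repeats, had peaks of fold 4.81 and 7.68 in the same libraries, at chr7:28810436-28810612 and chr7:28810646-28810870, which do not overlap either. A peak in 1 library was seen at Srsf5, Srsf6, Srsf7, Srrm1, Srrm2, Hnrnpc, Hnrnpdl, Hnrnph2, Hnrnpll and Hnrnpul2. For 8 of these 10 the library was replicate 2 at 34 h, which alone touched 7.85% of all genes. The others were Srsf7 in replicate 1 at 34 h, with a fold of 6.22, and Hnrnpdl in replicate 1 at 14 h, with a fold of 6.38.

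No library had a peak at Srsf3, Srsf9, Srsf12, Hnrnpd, Hnrnpf, Hnrnph1, Hnrnph3, Hnrnpm or Hnrnpu. Srsf3 is a small SR protein that works in messenger RNA export with Srsf7, Hnrnpd encodes the decay factor AUF1, and Hnrnpu encodes the scaffold attachment factor SAF-A. The other 26 of the 35 members had a peak in at least 1 library, against 20.2% of all genes.

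The peaks at these genes were of middling height. The highest member fold in a list was 9.94, 11.8 and 10.9 at 34 h and 8.02, 12.1 and 12.0 at 14 h, whereas the highest fold over all peaks of those lists was 32.2, 42.2 and 24.9 at 34 h and 39.9, 61.0 and 44.4 at 14 h. The median member peak exceeded 65.4%, 61.0% and 40.4% of its list at 34 h and 29.2%, 61.4% and 49.7% at 14 h. No list had its strongest peak at an SR or hnRNP gene.

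For the 4 genes with a peak in every library the summit count, divided by relative depth, was compared between times. Tra2b reached 27.5 ± 0.507 fragments at 34 h and 21.6 ± 6.32 at 14 h (SD over 3 libraries; exact two-sided permutation test, p = 0.4). Srsf1 reached 24.4 ± 7.05 at 34 h and 25.8 ± 6.30 at 14 h (exact p = 0.8). Srsf10 reached 15.7 ± 4.07 at 34 h and 15.6 ± 1.39 at 14 h (exact p = 1). Hnrnpab reached 19.6 ± 8.18 at 34 h and 19.0 ± 6.41 at 14 h (exact p = 0.8). The adjusted p over the 4 genes was 1 for each by Benjamini-Hochberg, and 3 against 3 libraries cannot go below 0.1. The differences were smaller than the spread between libraries for Srsf1, Srsf10 and Hnrnpab, and for Tra2b smaller than the spread at 14 h. These heights exist only where a peak was called, and the folds themselves were given no test across times.

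The counts by time lean on list length. In the full lists 8 members had a region at both times (3.49% of all genes), 3 at 34 h only (5.3%) and none at 14 h only (0.781%). With 768 peaks from each list, 4 members kept a region at 34 h (Tra2b, Hnrnpa1, Hnrnpa2b1 and Hnrnpa3; 3.15% of all genes) and 8 at 14 h (3.75%), so the larger number changed sides. Leaving out replicate 1 or replicate 2 at 34 h gave 8 members in each case, with Srsf2, Srsf11 and Hnrnpul1 lost, against 4.48% of all genes without replicate 1 and 3.92% without replicate 2. Leaving out replicate 2 at 14 h gave 5 members, against 2.98% of all genes, with Tra2a, Hnrnpa3 and Hnrnpul1 lost. Without replicate 3, the count was 11 at 34 h (8.24% of all genes) and 6 at 14 h (3.46%), and without replicate 1 it was 7 at 14 h (3.72%).

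The share of members called stayed above that of all genes under each definition of a region tried here. With a −log10 q of at least 5, 9 members were called at 34 h (7.44% of all genes) and 8 at 14 h (4.01%), Srsf11 and Hnrnpab being lost at 34 h. With 50% reciprocal overlap there were 9 at 34 h (7.55%) and 8 at 14 h (3.98%). Requiring all 3 libraries left 8 at 34 h (3.92%) and 5 at 14 h (2.94%). Accepting any library gave 25 at 34 h (19.1%) and 15 at 14 h (6.96%). The window mattered little: 11 members at 34 h and 8 at 14 h were called by the gene body alone (7.92% of all genes at 34 h and 3.7% at 14 h) and by the summit in the window (8.71% at 34 h and 4.25% at 14 h). The gene boundaries alone gave 11 at 34 h (7.29%) and 7 at 14 h (3.87%), and 5 kb around the gene gave 13 at 34 h (10% of all genes) and 8 at 14 h (4.96%).

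Most peaks at the members lay upstream of a start. Starts and strands were listed for 33 of the 35 genes in the RefSeq promoter table, and Hnrnpll and Hnrnpul2 had none listed. Of 78 pairs of a member and a peak with a start, 72 had the summit upstream of the nearest listed start and 64 lay within 250 bp of it, with a median of 108 bp upstream. A listed start can lie inside the gene limits, so a summit upstream of it can still be inside the gene. Among the members with a region, all summits at Srsf1, Srsf10, Tra2a, Hnrnpa2b1 and Hnrnpul1 lay inside the gene limits. Those at Srsf11, Tra2b and Hnrnpab lay outside, and Srsf2, Hnrnpa1 and Hnrnpa3 had summits of both kinds. Within 250 bp lay 82.1% of the member pairs, against 66.5% of 9054 such pairs over all genes. Over all genes 61.5% of the pairs had the summit upstream, with a median of 38 bp upstream. Taking the median summit of each called gene, 11 of 11 members lay upstream at 34 h against 65.4% of 1586 genes, and 8 of 8 at 14 h against 64.3% of 762 genes. The 4 isolated members lay upstream at each time, against 64.4% of isolated genes at 34 h and 64.6% at 14 h. A set of other splicing genes, described below, stood between members and all genes. With a region and a listed start, 13 of 17 of them lay upstream at 34 h (76.5%) and 6 of 8 at 14 h (75%). Among the isolated ones the counts were 9 of 10 at 34 h and 3 of 4 at 14 h.

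Within 250 bp upstream lay the median summits of 10 of 11 members at 34 h and of 8 of 8 at 14 h. Among all called genes the share was 52.5% at 34 h and 50.4% at 14 h. Among the called other splicing genes it was 70.6% at 34 h and 62.5% at 14 h. The exception was Hnrnpa1, with its region nearer Cbx5. The exons and introns of the genes were not resolved, since the gene table used here gives gene limits alone.

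**Figure D3:**
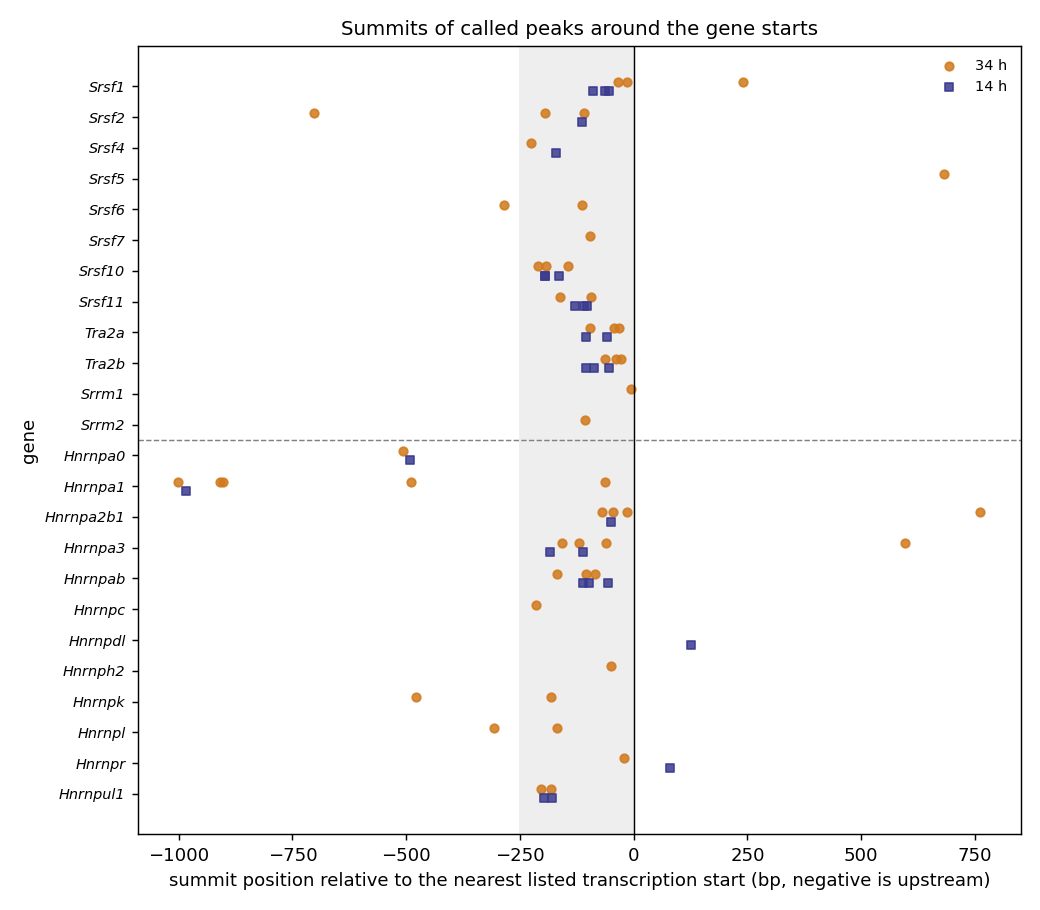
Position of each called summit relative to the nearest listed transcription start (horizontal axis, bp, negative is upstream) for each member with peaks (vertical axis), with 34 h and 14 h shown by colour and marker, the grey band marking the 250 bp upstream and the dashed line dividing SR from hnRNP genes. Most points gather within 250 bp upstream of the start, with a median of 108 bp upstream, and the highest peaks of Hnrnpa1 at 34 h stand 903 to 1001 bp upstream.

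The 250 bases upstream of 1 start per gene were searched on both strands for the letters of 12 short motifs. TTCCCGC, letters of an E2F element, occurred in 5 of the 11 member promoters with a region (45.5%) and in 1 of 22 without (4.55%), against 13.1% of 1720 promoters of all genes with a region and 4.97% of all 17492 promoters. The 5 were Srsf1, Srsf10, Tra2b, Hnrnpa2b1 and Hnrnpul1, and the member without a region was Srsf4. TTTCGCG, another set of E2F letters, occurred in none of the 33 member promoters, against 3.43% of all genes with a region and 0.966% of all promoters. E2F proteins control genes of the cell cycle and DNA replication. In the printed sequences the match lay inside the capitals at Srsf1, at bases 66 to 60 upstream of the start, and at Hnrnpa2b1, at bases 59 to 53. At Tra2b it lay at bases 119 to 113, a few bases upstream of the capitals. At Srsf10 matches stood at bases 198 to 192 and 188 to 182, inside the capitals, and at bases 62 to 56.

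GGGCGG and CCAAT were common in members with and without a region. GGGCGG, bound by SP factors, occurred in 10 of 11 promoters with a region (90.9%) and 16 of 22 without (72.7%), against 63.7% of all genes with a region and 42.7% of all promoters. CCAAT, bound by NF-Y, occurred in 8 of 11 (72.7%) and 9 of 22 (40.9%), against 50.6% of all genes with a region and 36.5% of all promoters. TTTGAA, letters of the CHR element of cell-cycle genes, occurred in 4 of 11 (Srsf11, Hnrnpa1, Hnrnpa2b1 and Hnrnpul1) and in none of 22, against 13.02% of all genes with a region and 15.1% of all promoters. A variant of it, TTCGAA, occurred in none of 11 and in 2 of 22 (Srsf12 and Hnrnpm), against 2.85% of all genes with a region and 1.58% of all promoters. CCACCC, bound by KLF factors, occurred in 27.3% of both sets of members, against 28.1% of all genes with a region and 29.5% of all promoters. Letters for ETS factors occurred in 1 of 11 and 5 of 22, against 16.6% of all genes with a region and 9.15% of all promoters. In the same order, NRF1 letters stood at 1 of 11, 2 of 22, 6.28% and 4.00%. YY1 letters stood at 1 of 11, 0 of 22, 4.30% and 4.08%. CRE letters stood at 2 of 11, 2 of 22, 4.88% and 3.45%. E-box letters stood at 1 of 11, 1 of 22, 7.21% and 6.65%. GGGCGG can overlap TTCCCGC on the other strand, as it does at Srsf10. Member promoters with a region had a median GC content of 60.8%, those without 68.2%, all promoters with a region 60.0% and all promoters 55.2%. A match describes the letters of a window and was not tested as a binding site.

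**Figure D4:**
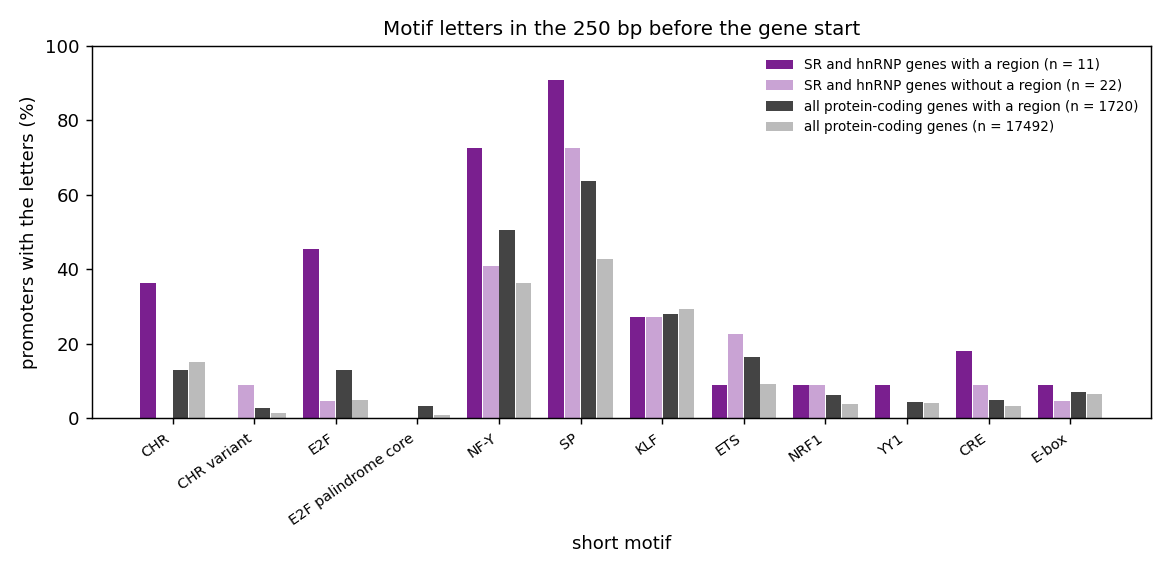
Percentage of promoters that hold each motif's letters in the 250 bp before the start (vertical axis) for each of 12 motifs (horizontal axis), in members with a region (n = 11), members without (n = 22), all genes with a region (n = 1720) and all genes (n = 17492). The E2F letters TTCCCGC stand at 45.5% in members with a region, 4.55% in members without, 13.1% in all genes with a region and 4.97% in all genes. The KLF letters stand between 27.3% and 29.5% in all 4 sets.

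Other genes of the splicing pathway, pooled, gave a lower share than the 35 members at each time, but not every list did. Of 108 genes in 5 lists, regions were called for 23 at 34 h (21.3%) and for 11 at 14 h (10.2%), again above the 8.79% of all genes at 34 h and the 4.27% at 14 h. The lists were drawn up with earlier results of these data known, so the difference is a description. Genes for Sm, LSm and other snRNP proteins were called at 6 of 22 at each time (27.3%), which is below the 31.4% of the members at 34 h and above their 22.9% at 14 h. Of these genes Lsm2, a subunit of the ring that holds U6 RNA, had the highest fold, 18.8 ± 4.11 at 34 h and 27.0 ± 6.89 at 14 h over 3 libraries each (SD). Lsm5, of the same ring, followed with 11.6 ± 2.81 at 34 h and 16.8 ± 3.82 at 14 h (SD, n = 3). Folds of all peaks ran higher at 14 h, so the folds of these and the next genes do not show a change between times.

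Of 8 kinases of SR proteins and their like, 1 had a region at 34 h and none at 14 h, and it was Prpf4b. Of 36 other splicing RNA-binding proteins, 9 had one at 34 h and 2 at 14 h, led by Tial1 with a fold of 8.26 ± 1.21 at 34 h and 13.3 ± 1.57 at 14 h (SD, n = 3). Factors of the U2 particle and the 3′ splice site had 2 of 16 at 34 h and 1 of 16 at 14 h, with Sf3b5 called at both times. Factors of the tri-snRNP and of catalysis had 5 of 26 at 34 h and 2 of 26 at 14 h, with Prpf38a among those called at both times. The mean folds at Lsm2 and Lsm5 were above that of any SR or hnRNP member at each time.

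**Figure D5:**
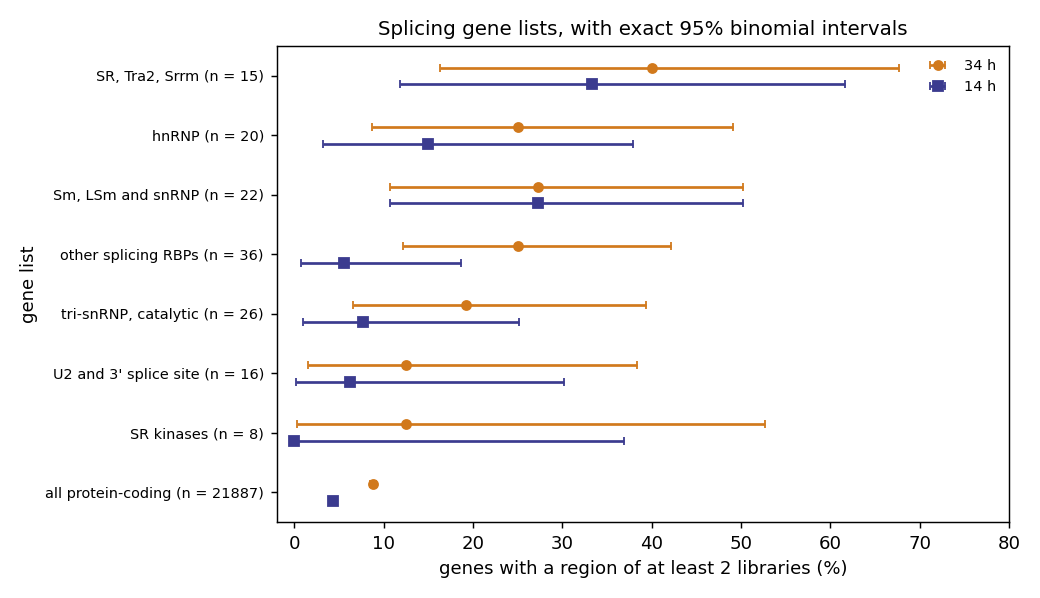
Percentage of genes with a region of at least 2 libraries (horizontal axis) for SR genes, hnRNP genes, 5 lists of other splicing genes and all protein-coding genes (down), at 34 h and 14 h, with exact 95% binomial intervals. The SR genes stand highest at 34 h with 40% and at 14 h with 33.3%, and the intervals of the lists overlap widely.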

How the data were processed

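Chromatin immunoprecipitation followed by sequencing was measured in 6 IP libraries and 2 inputs of C2C12 cells, and groups and replicate numbers came from the sample titles. Subread, MACS2 and the build mm10 were used by the authors, per the submitters' processing notes. Their versions, the threshold for a peak and how reads matching several places were handled are not stated there. Each IP library was called alone with the matching input, per the names of the deposited lists. The fold, as deposited by the authors, is a linear ratio of pileup over the caller's expected background where a peak is tallest, with the same small constant added to each. It is therefore lower than the plain ratio. Significance was deposited as −log10 of a p-value and of a q-value, and a whole-number score was deposited that was not used. Input libraries were not analysed here.

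Gene limits came from the RefSeq table of GRCm38.p6, which shares its chromosome sequences with mm10, for 21887 protein-coding genes on the autosomes, X and Y. A window ran 1 kb beyond each limit. Peaks of the libraries of a time were merged at 1 bp of overlap, and a region needed peaks of 2 of 3 libraries. Fragments at each summit were solved from the caller's fold and p-value, for 100% of peaks, and relative depth from the lowest background per narrowest peak. The solving was tested on simulated peaks. Where a gene had several peaks in a library, the highest fold was used. Starts and promoter sequences came from the RefSeq promoter table, with the listed start nearest to each summit for positions and the start nearest the gene's limit for motifs. In 582 of 582 overlapping promoter pairs on opposite strands the sequences matched.

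The members and lists were chosen with earlier results of these data known, so no test was made over a list. All 35 genes were accounted for, and those with a region at either time were given in every library. In the other splicing lists, called genes were named by highest mean fold, at most 4 a list, and a withheld item is not reported here. Intervals are exact binomial at 95%. Summit heights were compared with exact two-sided permutation tests. The alternatives tried were a minimum −log10 q of 5, equal list lengths, 50% reciprocal overlap, all 3 or any library, other windows, isolated genes, other heights and leaving out each replicate. Python 3.11.15, pandas 2.3.3, numpy 2.4.6 and scipy 1.17.1 were used.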

Additional observations from a re-analysis of the deposited data

How the results depend on the processing

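Of 35 members, 11 were called at 34 h and 8 at 14 h, of 108 other splicing genes 23 at 34 h and 11 at 14 h, and the SR share exceeded the hnRNP share by 15 points at 34 h and 18.3 at 14 h. Cutting the lists to equal length gave 4 members and 8 other splicing genes at 34 h, where 3.15% of all genes were called against 8.79% in the full lists. The SR minus hnRNP difference was then -8.33 points at 34 h, with 2 members at both times and 6 at 14 h only. A −log10 q of at least 5 left 2 members at 14 h only. Reciprocal overlap of 50% gave a difference of 25 points at 34 h and 1 member at 14 h only. With all 3 libraries required, the difference was 6.67 points at 34 h, the other splicing genes numbered 13 at 34 h and 7 at 14 h, and the members 5 at 14 h, 4 at both times and 1 at 14 h only. With any library accepted, the members numbered 25 at 34 h, 15 at 14 h, 14 at both times, 11 at 34 h only and 1 at 14 h only, the other splicing genes 43 at 34 h and 20 at 14 h, and the difference was 6.67 points at 14 h. The boundaries alone gave a difference of 23.3 points at 14 h, and 5 kb around the gene gave 5 points at 34 h and 5 members at 34 h only, with Hnrnpl and Hnrnpu added. With no other gene within 2 kb there were 14 members and 52 other splicing genes. Of these members, 4 were called at 34 h (28.6%), 4 at 14 h (28.6%), 4 at both times and 0 at 34 h only. Of these other splicing genes, 13 were called at 34 h (25%) and 6 at 14 h (11.5%). The SR minus hnRNP difference was 13.3 points at 14 h. With Srsf genes only, the difference was 11.4 points at 34 h and 12.3 at 14 h. The shares of all genes, or of isolated genes, under these settings are given above for each time. For members at both times or at 1 time only, such shares were taken from the full lists alone. Under the other settings these counts cannot be told from a shift over all genes. The cause of these changes was not tested.

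Leaving out each replicate gave 8 to 11 members at 34 h, 5 to 8 at 14 h, 5 to 8 at both times, 2 to 6 at 34 h only and 0 to 2 at 14 h only. The other splicing genes then numbered 13 to 23 at 34 h and 7 to 11 at 14 h. The SR minus hnRNP difference ranged from 6.67 to 15 points at 34 h and from 16.7 to 23.3 points at 14 h. The gene body alone and the summit in the window changed no count of members.

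The difference in summit height (34 h minus 14 h) was -1.36 fragments at Srsf1, ranged from -4.24 to 2.71 as replicates were left out, and was 2.71 without 34 h replicate 3 and 2.00 without 14 h replicate 2. At Srsf10 it was 0.0543, with -2.14 to 1.88 as replicates were left out (-2.14 without 34 h replicate 1 and -0.745 without 14 h replicate 1), and -0.226 on the scale of log2 fold. At Hnrnpab it was 0.515, with -4.16 to 4.20 as replicates were left out (-4.16 without 34 h replicate 2, -1.004 without 14 h replicate 1 and -1.65 without 14 h replicate 3), and -0.463 on the scale of log2 fold. Tra2b stayed higher at 34 h in these settings, by 5.96 fragments in the full data.

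The labels do not say that equal replicate numbers are pairs. For replicates 1 to 3, the correlation of the deviations of equal numbers over 428 regions was 0.0568, 0.287 and 0.0929. At 34 h, replicates 1 and 2 correlated best with the 14 h replicate of the same number. Replicate 3 at 34 h correlated best with replicate 1 at 14 h (0.149). Whether equal numbers mark pairs cannot be told from these values. With the replicate block, the exact sign-flip p was 0.75 for Srsf1, 1 for Srsf10, 0.5 for Tra2b and 0.75 for Hnrnpab, and it cannot go below 0.25 with 3 pairs. The paired differences were -1.36, 0.0543, 5.96 and 0.515 fragments in that order, as without the block. Summits on 10 or more fragments and at most 3 libraries a time limit what the counts can separate.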

Other observations

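Several members had a further peak that was not part of the region called there. In replicate 2 at 34 h, Hnrnpa3 had a peak of fold 5.24 with its summit 597 bp inside the gene, Hnrnpa2b1 had a peak of fold 4.99 with its summit 762 bp inside, and Srsf2 had a peak of fold 4.56 with its summit 703 bp upstream of its start and 35 bp inside Mfsd11. The same library had a pair of peaks upstream of Srsf6, with summits 285 and 113 bp upstream and folds of 7.57 and 4.56. Srsf5, an SR gene induced in growing liver cells, had its peak 681 bp inside the gene, with a fold of 7.68. No other library had a peak at any of these places.

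Close neighbours shared peaks with members that had no region. The peak at Hnrnph2 in replicate 2 at 34 h lay 49 bp upstream of its start and 125 bp upstream of that of Gla. The peak at Hnrnpul2 in the same library lay 124 bp upstream of the start of Ttc9c, and that at Hnrnpdl in replicate 1 at 14 h lay 126 bp inside Hnrnpdl and 898 bp upstream of Enoph1.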
